A study of Mus musculus with 8 samples.

Results

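The genes described here are the 5 muscarinic acetylcholine receptors (Chrm1, Chrm2, Chrm3, Chrm4 and Chrm5) and 4 genes that make, load, recover and break down acetylcholine (Chat, Slc18a3, Slc5a7 and Ache). They were taken by symbol from the table of raw counts, and all 9 were found among its 55376 features. RNA from the dissected striatum was sequenced after removal of ribosomal RNA in 4 mice of the line D9-Cre-Bcl11b tm1.1 Lead (so spelled in the sample labels, tm1.1Leid in the study's methods), called deletion mice here, and in 4 mice without Cre (Cre- mice), with 1 library per mouse. The deletion mice carried Cre under a regulatory element of Ppp1r1b, the gene of DARPP-32, and floxed Bcl11b. The Cre- mice carried the floxed alleles alone, so no group had Cre without floxed Bcl11b. All 8 mice were 4 months old, female by their labels and of the strain labelled C57Bl/129S2/Sv. The Cre acts in medium spiny neurons (MSNs), the projection neurons of the striatum, whereas Chat, Slc18a3 and Slc5a7 are textbook markers of a different cell, the cholinergic interneuron. The whole tissue was measured, so fewer cells of a type and less RNA per cell cannot be told apart.

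Cholinergic interneurons are rare, large cells whose axons fill the striatum with acetylcholine. Choline acetyltransferase, encoded by Chat, makes the transmitter, the vesicular transporter encoded by Slc18a3 (VAChT) loads it into vesicles, acetylcholinesterase (Ache) breaks it down in the cleft, and the choline transporter encoded by Slc5a7 (CHT) takes the choline back up. Muscarinic receptors are G-protein-coupled receptors: M1, M3 and M5 act through Gq proteins and phospholipase C, and M2 and M4 through Gi and Go proteins. M1 is found in both classes of MSN, M4 is enriched in the direct pathway MSNs that carry the dopamine D1 receptor, and M2 and M4 also serve the cholinergic interneuron as autoreceptors.

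None of the 9 genes passed the test between deletion and Cre- mice. The counts were compared with edgeR's quasi-likelihood test, and p was adjusted by Benjamini-Hochberg over 22173 genes, with calls made under 0.01. In the same comparison 8.78% of all tested genes passed (4.87% higher and 3.91% lower in deletion mice), so 0 of 9 is to be read against that share. All 9 passed the filter on low counts. At an unadjusted p under 0.05 there were 5 of the 9 (3 lower and 2 higher), against 29.6% of all genes tested. DESeq2 called 3 of the 9, Slc18a3 and Ache as higher and Chrm1 as lower, where it called 14.9% of all genes (7.88% higher and 7.06% lower in deletion mice), and limma-voom called 0. The same 3 genes were those whose groups did not overlap, that is, whose 4 deletion mice all lay on the same side of the 4 Cre- mice, which held for 22% of all genes tested (11.7% higher and 10.3% lower in deletion mice). The median log2 fold change (deletion over Cre-) was −0.08 over the 9 genes and −0.0037 over all genes tested.

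Bcl11b itself, the targeted gene, stood between 141 and 151 CPM in deletion mice and between 281 and 476 CPM in Cre- mice, with a log2 fold change of −1.43 (edgeR, adjusted p = 7.06e-05). CPM are counts scaled to a common library size after TMM adjustment. Libraries held 51536311 to 70247098 counts in deletion mice and 47059264 to 50213377 in Cre- mice, so every deletion library was deeper than every Cre- library. Thinned to the smallest library, 0 of the 9 genes passed as well. Striatal projection neuron markers were abundant in each library. Over 6 genes that include Bcl11b, the summed level was 4520 to 4890 CPM in deletion mice and 5960 to 7000 CPM in Cre- mice. Of the 6 genes 4 fell, Bcl11b among them, where 3.91% of all genes tested fell. Tissue from outside the striatum was carried unequally by the libraries. The summed level of 8 cortical neuron markers was 188 CPM in deletion mouse 4 and 179 CPM in Cre- mouse 4, against 67.4 to 106 and 70.9 to 79.8 CPM in the other deletion and Cre- mice. The sum includes Cux2, which was higher in deletion mice (edgeR, log2 fold change 0.95, adjusted p = 8.67e-05). Slc17a7, another of the 8, was at 91.9 CPM in deletion mouse 4 and 90.1 CPM in Cre- mouse 4. The other deletion and Cre- mice had 7.3 to 31.9 and 11.0 to 19.5 CPM of it. The summed level of 5 choroid plexus markers ran from 56.2 to 9770 CPM in deletion mice, with the highest in deletion mouse 2, and from 25.0 to 1660 CPM in Cre- mice.

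**Figure D1:**
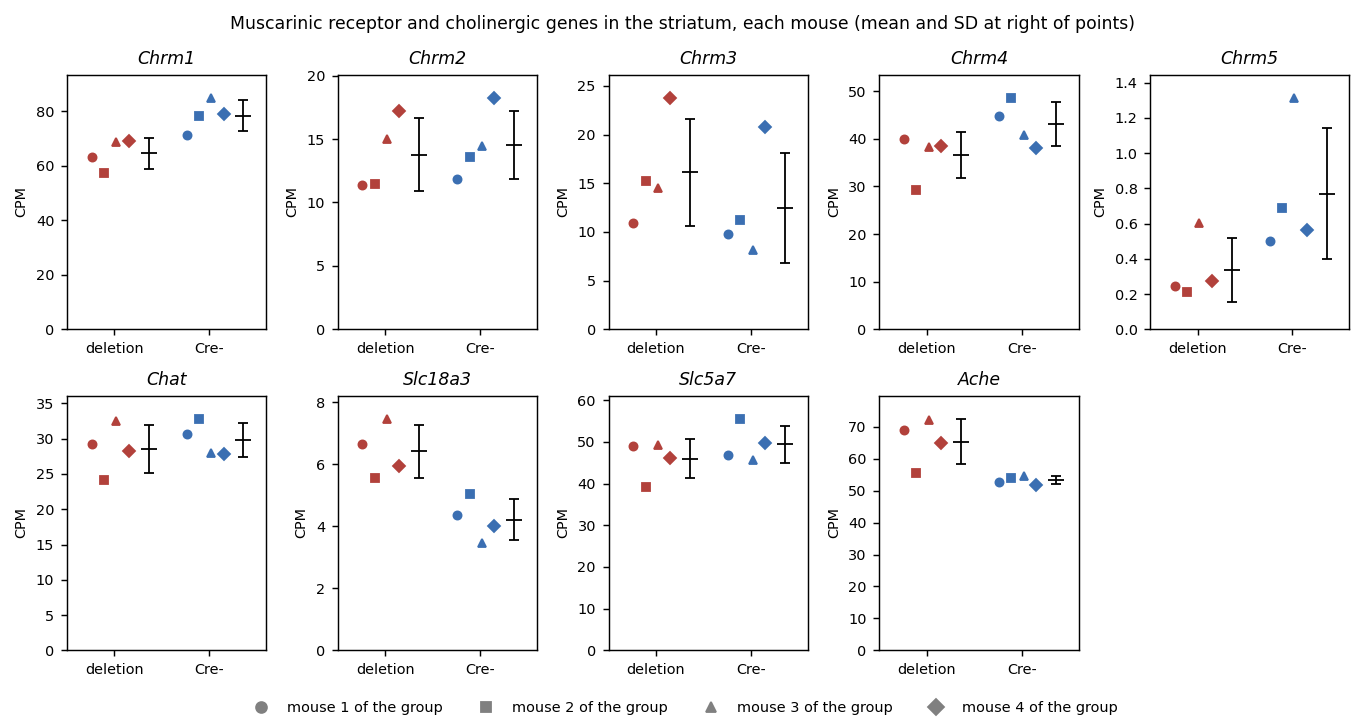
Level of each of the 9 genes in CPM in every mouse, deletion mice in red and Cre- mice in blue, with the symbol shape giving the mouse number and the bar at the right of the points the mean and SD of 4 mice. The groups are apart for Chrm1 (lower in deletion mice), Slc18a3 and Ache (both higher in deletion mice) and overlap for the other genes.

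Among the muscarinic receptors, the M1 gene Chrm1 had the highest counts and was lower in all 4 deletion mice than in all 4 Cre- mice. The gene spans 8663789 to 8683587 on chromosome 19 (GRCm38) and shares 329 exonic bases with the opposite-strand gene Gm22820 in the annotation. Its level was 63.1, 57.2, 68.8 and 69.0 CPM in deletion mice 1 to 4, against 71.3, 78.1, 85.0 and 79.0 CPM in Cre- mice 1 to 4. The highest deletion mouse and the lowest Cre- mouse were thus close together. The means were 64.5 ± 5.58 CPM in deletion mice and 78.3 ± 5.61 CPM in Cre- mice (SD, n = 4 each). That is a log2 fold change of −0.28, with a standard error of 0.07 and a 95% interval of −0.44 to −0.12. The adjusted p was 0.0226 from edgeR and 0.00465 from DESeq2, and it lay between 0.00465 and 0.0683 over 17 alternative analyses. By exact two-sided permutation of the mice p was 0.0286, the smallest that 4 against 4 allow.

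Chrm4, the gene of the Gi-coupled M4 receptor, was lower on average in deletion mice, with overlapping groups. Deletion mice 1 to 4 had 40.0, 29.3, 38.3 and 38.4 CPM, and Cre- mice 1 to 4 had 44.8, 48.6, 40.9 and 38.0 CPM. Cre- mouse 4 lay below 3 of the deletion mice, and deletion mouse 2 lay below all others. The log2 fold change was −0.24 (95% interval −0.47 to −0.01, adjusted p = 0.158 from edgeR). The count of Chrm4 relative to Chrm1 in the same library, a measure free of scaling, differed by 0.04 on the log2 scale between deletion and Cre- mice (standard error 0.13). Relative to the D1 receptor gene Drd1, itself at −0.26 (edgeR, adjusted p = 0.0314), Chrm4 differed by 0.02 (standard error 0.09). The groups overlapped for both ratios.

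The autoreceptor gene Chrm2 was at 11.4, 11.5, 14.97 and 17.2 CPM in deletion mice 1 to 4 and at 11.9, 13.6, 14.4 and 18.3 CPM in Cre- mice 1 to 4. The groups overlapped over most of their range, and the log2 fold change was −0.08 (95% interval −0.44 to 0.28, adjusted p = 0.8 from edgeR). An opposite-strand lincRNA, 9330158H04Rik, shares 142 exonic bases with Chrm2 in the annotation.

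Chrm3, the gene of the Gq-coupled M3 receptor, varied widely within both groups. Its level was 10.9, 15.2, 14.5 and 23.8 CPM in deletion mice 1 to 4, against 9.81, 11.2, 8.14 and 20.7 CPM in Cre- mice 1 to 4. The mouse numbered 4 was the highest of its group in each case, and these are the libraries with the highest cortical marker sums. The log2 fold change was 0.37 (95% interval −0.28 to 1.02, adjusted p = 0.464 from edgeR). Without both of those mice it was 0.49 (adjusted p = 0.0938 from edgeR), and over all 17 alternatives it ran from 0.12 without deletion mouse 4 to 0.73 without Cre- mouse 4, with adjusted p from 0.0592 to 0.835. Chrm2 was also highest in these 2 mice. The part of cortical tissue in either gene's level was not tested.

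**Figure D2:**
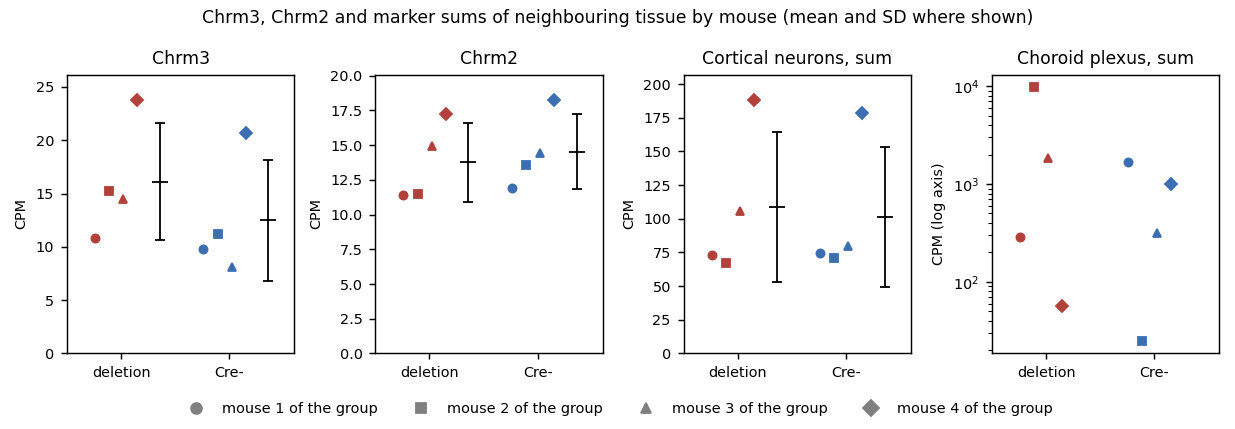
Levels of Chrm3 and Chrm2, the summed level of 8 cortical neuron markers and, on a log axis, the summed level of 5 choroid plexus markers, all in CPM, in each mouse of the deletion (red) and Cre- (blue) groups, with means and SD of 4 mice where the axis is linear. The mouse numbered 4 of each group is highest for Chrm3, Chrm2 and the cortical sum, and deletion mouse 2 is highest for the choroid plexus sum at 9770 CPM.

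Chrm5, the gene of the M5 receptor, which is best known from midbrain dopamine neurons, was close to the limit of detection. Deletion mice 1 to 4 had 17, 12, 39 and 14 counts, and Cre- mice 1 to 4 had 25, 33, 66 and 27 counts. In CPM these are 0.244, 0.214, 0.605 and 0.274 in deletion mice, against 0.503, 0.691, 1.31 and 0.566 in Cre- mice. Deletion mouse 3 reached the range of the Cre- mice and the other 3 lay below it. The log2 fold change was −1.19 with a wide interval (95% interval −2.12 to −0.25), and the adjusted p was 0.0824 from edgeR and 0.0495 from DESeq2. With at least 1 CPM required in 4 mice, the gene is not tested at all.

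Levels of different genes can be compared only per length. As CPM per kilobase of exon in GENCODE M21, the order in deletion mice was Chrm4 (25.4 ± 3.37), Ache (14.1 ± 1.55), Chrm1 (9.95 ± 0.86), Slc5a7 (8.14 ± 0.83), Chat (6.07 ± 0.74), Slc18a3 (2.66 ± 0.35), Chrm3 (2.57 ± 0.87), Chrm2 (2.27 ± 0.47) and Chrm5 (0.209 ± 0.114; SD, n = 4 each). In Cre- mice the order was Chrm4 (29.9 ± 3.21), Chrm1 (12.1 ± 0.86), Ache (11.5 ± 0.26), Slc5a7 (8.75 ± 0.79), Chat (6.34 ± 0.51), Chrm2 (2.40 ± 0.45), Chrm3 (1.99 ± 0.90), Slc18a3 (1.75 ± 0.27) and Chrm5 (0.48 ± 0.23; SD, n = 4 each). Neighbours whose ranges over mice overlapped were Slc18a3 with Chrm3 and Chrm3 with Chrm2 in deletion mice, and Chrm1 with Ache, Chrm2 with Chrm3 and Chrm3 with Slc18a3 in Cre- mice. Ache therefore lay above Chrm1 in deletion mice with no overlap, whereas the ranges of these genes overlapped in Cre- mice. The models of Chrm4 (1440 bases) and Chrm5 (1599 bases) have the length of the coding sequence alone, while Chrm1 (6487 bases) has its UTRs. The distance between Chrm4 and the others therefore depends on the annotation.

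Of the genes of acetylcholine itself, Chat showed overlapping groups. It was at 29.3, 24.1, 32.5 and 28.2 CPM in deletion mice 1 to 4 and at 30.7, 32.8, 28.0 and 27.8 CPM in Cre- mice 1 to 4. The lowest value was that of deletion mouse 2, and the remaining 7 mice lay within 27.8 to 32.8 CPM. Its estimated log2 difference was −0.06 (95% interval −0.27 to 0.14, adjusted p = 0.714 from edgeR).

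Slc5a7, the choline transporter gene, had 49.0, 39.2, 49.3 and 46.1 CPM in deletion mice 1 to 4, against 46.7, 55.5, 45.6 and 49.8 CPM in Cre- mice 1 to 4. Deletion mouse 2 was again the lowest, and the groups overlapped. For this gene the estimate was −0.11 on the log2 scale (95% interval −0.29 to 0.08, adjusted p = 0.473 from edgeR). The count ratio of Slc5a7 to Chat stayed between 1.52 and 1.68 in deletion mice and between 1.52 and 1.79 in Cre- mice. Deletion mouse 2 had the lowest level among deletion mice for 7 of the 9 genes, and it is also the library with the highest choroid plexus sum. Whether one bears on the other was not tested.

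Slc18a3, the vesicular transporter gene, was higher in all 4 deletion mice. It had 464, 312, 481 and 304 counts in deletion mice 1 to 4 and 217, 240, 174 and 191 counts in Cre- mice 1 to 4. In CPM these are 6.66, 5.55, 7.46 and 5.96 in deletion mice, against 4.36, 5.02, 3.46 and 4.00 in Cre- mice. The lowest deletion mouse, number 2, was above the highest Cre- mouse, also number 2. Mean levels were 6.41 ± 0.84 CPM in deletion mice and 4.21 ± 0.65 CPM in Cre- mice (SD, n = 4 each). The estimate was 0.61 on the log2 scale (95% interval 0.28 to 0.94, standard error 0.15), or 52.2% higher in deletion mice. The adjusted p was 0.018 from edgeR and 0.000663 from DESeq2, with a range of 0.000663 to 0.0638 over 17 alternatives, and p was 0.0286 by exact permutation of the mice.

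Chat and Slc18a3 share a locus. On the minus strand of chromosome 14, Chat spans 32408203 to 32465989 and Slc18a3 lies within it, from 32462438 to 32464850, so their annotated starts are 1139 bases apart. They share 0 exonic bases, but reads from unspliced Chat RNA over that interval cannot be told apart from reads of Slc18a3 in these counts. An antisense transcript, Gm2990, also overlaps the span of Chat without sharing exonic bases.

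The windows around the starts of Chat and Slc18a3 are shown because the same locus holds a gene whose groups overlapped and another whose groups were apart, and that of Ache because its groups were apart as well. Each runs from 250 bases before to 50 bases after the RefSeq start on GRCm38.p6, written 5′ to 3′ on the strand of the gene, and capitals mark GC boxes, searched as GGGCGG on both strands with overlaps allowed. A window was found for 8 of the 9 genes, Chrm1 having no match by symbol.
Chat (chr14:32465860-32466159, minus strand): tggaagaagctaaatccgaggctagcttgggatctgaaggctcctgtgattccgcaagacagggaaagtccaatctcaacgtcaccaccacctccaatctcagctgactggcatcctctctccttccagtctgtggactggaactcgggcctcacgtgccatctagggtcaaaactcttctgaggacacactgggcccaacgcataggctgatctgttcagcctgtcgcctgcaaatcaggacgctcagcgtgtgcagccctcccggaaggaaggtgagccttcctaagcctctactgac
Slc18a3 (chr14:32464801-32465100, minus strand): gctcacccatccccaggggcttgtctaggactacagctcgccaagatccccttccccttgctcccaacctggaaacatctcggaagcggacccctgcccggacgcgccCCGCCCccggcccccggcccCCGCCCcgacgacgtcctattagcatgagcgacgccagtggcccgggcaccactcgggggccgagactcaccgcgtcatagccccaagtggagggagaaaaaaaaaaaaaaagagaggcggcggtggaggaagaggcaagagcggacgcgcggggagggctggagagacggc
Ache (chr5:137288004-137288303, plus strand): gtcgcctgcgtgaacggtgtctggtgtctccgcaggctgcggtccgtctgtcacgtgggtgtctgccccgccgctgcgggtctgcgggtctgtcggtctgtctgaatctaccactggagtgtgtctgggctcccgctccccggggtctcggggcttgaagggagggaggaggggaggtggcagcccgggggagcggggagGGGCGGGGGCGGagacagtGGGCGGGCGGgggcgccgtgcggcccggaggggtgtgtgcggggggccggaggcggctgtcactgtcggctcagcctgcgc

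The window of Chat held 0 GC boxes and 10 CG dinucleotides, that of Slc18a3 held 2 and 27, and that of Ache held 4 and 30. The GC content was 55.7% for Chat, 67.0% for Slc18a3 and 74.0% for Ache, against a median of 52.7% over 27025 such windows. A GC box was present in 35.9% of all those windows. Chrm4, whose groups overlapped, also had 4 GC boxes, and Slc5a7 had 0. These are matches of letters in the reference and not measured binding.

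The ratio of Slc18a3 to Chat counts differed between the groups without overlap. It was 0.228, 0.230, 0.229 and 0.211 in deletion mice 1 to 4, against 0.142, 0.153, 0.124 and 0.144 in Cre- mice 1 to 4. All deletion mice were thus above all Cre- mice, with 0.211 as the lowest deletion value and 0.153 as the highest Cre- value. The difference was 0.68 on the log2 scale (standard error 0.07; exact permutation test, p = 0.0286, n = 4 each). The p of 0.0286 is the smallest that 4 mice against 4 allow. Adjusted over the 8 ratios compared it was 0.114, the lowest value possible with 2 of 8 ratios at that smallest p, so the adjusted p could not have passed and says nothing on the size of the difference.

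Ache was higher in all 4 deletion mice and varied little among Cre- mice. Its level was 68.9, 55.5, 72.0 and 65.0 CPM in deletion mice 1 to 4, against 52.8, 53.8, 54.6 and 51.9 CPM in Cre- mice 1 to 4. Deletion mouse 2 lay just above the Cre- mice, and the other 3 were well above them. The means were 65.4 ± 7.14 CPM in deletion mice and 53.3 ± 1.19 CPM in Cre- mice (SD, n = 4 each), or 0.30 on the log2 scale (95% interval 0.13 to 0.46) or 22.8% higher. The adjusted p was 0.0189 from edgeR and 0.00304 from DESeq2, and p was 0.0286 by exact permutation. Without deletion mouse 2 the gene passed (log2 fold change 0.37, adjusted p = 0.0017 from edgeR), and over all 17 alternatives the adjusted p ran from 0.0017 to 0.065. Acetylcholinesterase is not confined to cholinergic cells, and these counts do not say which cells hold the RNA. Ache spans 137287519 to 137294466 on chromosome 5 and shares 98 exonic bases with the opposite-strand lincRNA Gm42456.

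The ratio of Ache to Chat counts was 2.35, 2.30, 2.21 and 2.30 in deletion mice 1 to 4 and 1.72, 1.64, 1.95 and 1.87 in Cre- mice 1 to 4. The groups were apart, by 0.36 on the log2 scale (standard error 0.06; exact permutation test, p = 0.0286, adjusted over 8 ratios 0.114, n = 4 each). The other 6 ratios overlapped between groups. The ratio of Chrm2 to Chat differed by −0.02 (standard error 0.22), Slc5a7 to Chat by −0.04 (0.06) and Lhx8 to Chat by −0.05 (0.10), and that of Chrm3 to Chrm1 by 0.69 (0.37; exact permutation test, p = 0.114). With any mouse left out, Slc18a3 and Ache stayed higher relative to Chat in deletion mice.

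**Figure D3:**
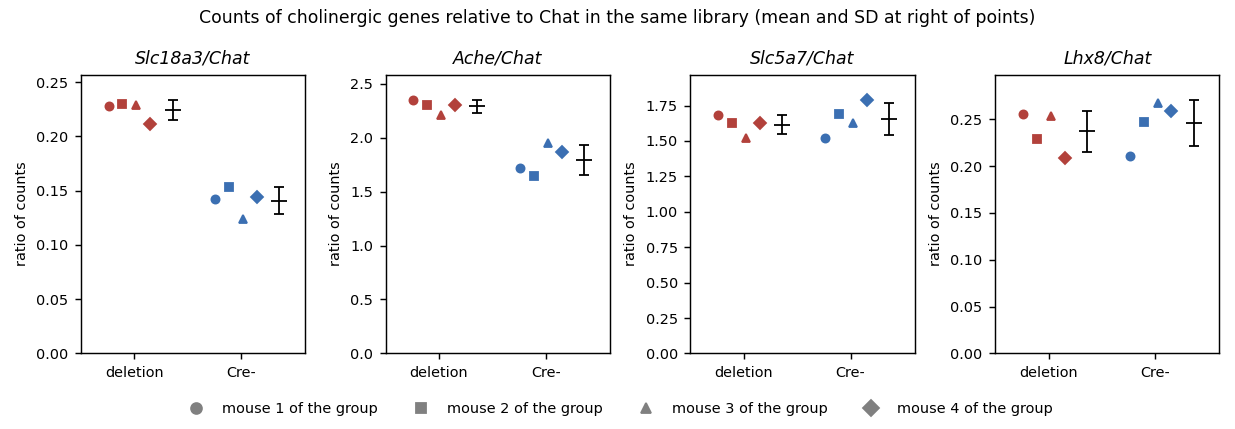
Ratio of the counts of Slc18a3, Ache, Slc5a7 and Lhx8 to those of Chat in the same library, one point per mouse, deletion mice in red and Cre- mice in blue, with the mean and SD of 4 mice at the right of the points. Slc18a3 and Ache relative to Chat are higher in every deletion mouse, and the groups overlap for Slc5a7 and Lhx8.

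Further genes known from the cholinergic interneuron were taken as a list. Of its 9 genes, 1 fell, 0 rose and 8 did not pass, where 8.78% of all genes tested passed, and the median log2 fold change was −0.09. The LIM homeobox gene Lhx8, which specifies these cells, was at 7.48, 5.54, 8.27 and 5.90 CPM in deletion mice 1 to 4, against 6.47, 8.12, 7.47 and 7.18 CPM in Cre- mice 1 to 4, and its groups overlapped. Isl1, another LIM homeobox gene, had a log2 fold change of 0.10 and Slc10a4, whose product sits on cholinergic vesicles, −0.09. The homeobox genes Gbx1 (0.27) and Gbx2 (−0.27), the zinc finger gene Zic4 (−0.47) and the neurotrophin receptor gene Ngfr (0.50) did not pass either, and apart from Ngfr their 95% intervals included 0. Ngfr had an interval of 0.04 to 0.96 and an adjusted p of 0.133 from edgeR.

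Slc17a8, the vesicular glutamate transporter VGLUT3 that lets cholinergic interneurons release glutamate as well, was the gene of this list that fell. It was at 13.2, 12.2, 13.4 and 12.3 CPM in deletion mice 1 to 4, against 20.02, 18.2, 17.9 and 15.4 CPM in Cre- mice 1 to 4. All deletion mice were below all Cre- mice. It fell by 0.48 on the log2 scale, with a standard error of 0.09 (edgeR, adjusted p = 0.00408). The call was lost in 6 of the 8 analyses that leave out a mouse, with a highest adjusted p of 0.015 without Cre- mouse 3. Relative to Chat, a ratio added after the values were seen, Slc17a8 was at 0.453, 0.504, 0.411 and 0.436 in deletion mice and at 0.653, 0.555, 0.639 and 0.554 in Cre- mice, a difference of −0.41 on the log2 scale (standard error 0.09), given as a description with no test.

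Markers of other striatal interneurons gave a background for these levels. Of 8 such genes (Sst, Npy, Nos1, Pvalb, Calb2, Th, Chodl and Pthlh) 0 passed by edgeR, where 8.78% of all genes tested passed. Their median was 0.02 on the log2 scale. Th alone had an unadjusted p under 0.05 (1 of 8, against 29.6% of all genes tested) and groups that did not overlap (1 of 8, against 22%). It was higher in deletion mice, with a log2 fold change of 1.30 (edgeR, adjusted p = 0.018). Its level was 11.2 to 25.3 CPM in deletion mice, against 3.62 to 10.9 CPM in Cre- mice. The summed level of the 8 genes was 137 to 187 CPM in deletion mice and 147 to 178 CPM in Cre- mice. In the pallidum and basal forebrain, further cholinergic neurons lie next to the striatum. Of 6 markers of these regions 1 passed (Kcna1, lower), where 3.91% of all genes tested fell. The defining gene Nkx2-1 had a log2 fold change of 0.20 (95% interval −0.22 to 0.62) at under 2 CPM in each mouse.

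Nicotinic receptors are the ligand-gated channels for acetylcholine. Of 16 subunit genes 12 were tested, and 2 rose, 1 fell and 9 did not pass (4.87% of all genes tested rose and 3.91% fell). Their median log2 fold change was −0.19. Chrnb2, the β2 subunit of the main brain receptor, was the most abundant of them in counts and rose, with 80.4, 66.1, 78.1 and 77.9 CPM in deletion mice 1 to 4, against 56.7, 57.2, 58.2 and 66.5 CPM in Cre- mice 1 to 4 (log2 fold change 0.34, adjusted p = 0.0092 from edgeR). Deletion mouse 2 lay just below Cre- mouse 4, so the groups touched. Chrna4, which encodes the α4 subunit that pairs with β2, was at −0.98 on the log2 scale without passing (edgeR, adjusted p = 0.0406).

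Chrna7, the subunit of the homomeric α7 receptor, fell. Its level was 14.1, 13.7, 13.9 and 15.8 CPM in deletion mice 1 to 4, against 30.2, 20.2, 22.3 and 18.2 CPM in Cre- mice 1 to 4, with no overlap (log2 fold change −0.66, adjusted p = 0.00744 from edgeR). Chrnb4, the β4 subunit, rose at a low level, with 0.818, 1.03, 0.807 and 0.783 CPM in deletion mice and 0.0804, 0.335, 0.358 and 0.126 CPM in Cre- mice (log2 fold change 1.92, adjusted p = 0.00805 from edgeR). These calls were close to the threshold. Chrnb4 had only 57, 58, 52 and 40 counts in deletion mice 1 to 4 and 4, 16, 18 and 6 counts in Cre- mice 1 to 4, and its call was lost when libraries were thinned to the smallest (edgeR, adjusted p = 0.0117). With a mouse left out, Chrnb2 and Chrna7 were each lost in 6 of 8 analyses and Chrnb4 in 7, with highest adjusted p values of 0.0324, 0.0269 and 0.0223, each without deletion mouse 3.

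**Figure D4:**
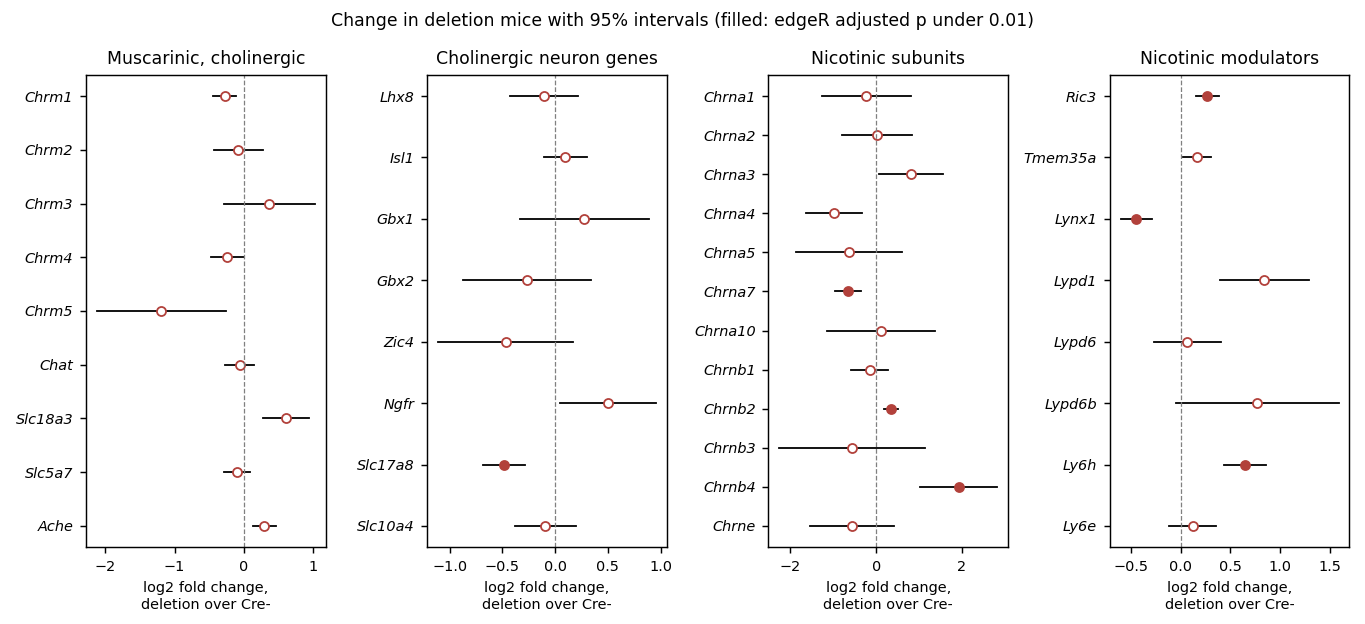
Log2 fold change of deletion over Cre- mice with its 95% interval for the 9 muscarinic and cholinergic genes, 8 further cholinergic interneuron genes, 12 tested nicotinic subunits and 8 nicotinic chaperones and modulators; filled points passed an adjusted p of 0.01 in edgeR. In the first panel 0 points are filled, and filled points in the others are Slc17a8, Chrna7, Chrnb2, Chrnb4, Ric3, Lynx1 and Ly6h.

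Of 8 genes whose proteins fold or tune nicotinic receptors, 2 rose, 1 fell and 5 did not pass, against the same shares of all genes tested. The median log2 fold change was 0.22. The groups were apart for 5 of the 8, against 22% of all genes tested. An unadjusted p under 0.05 in edgeR was found for 5, against 29.6%. Lypd1 had the largest log2 fold change, 0.84, without passing (edgeR, adjusted p = 0.0153). Lypd1 and Tmem35a, which did not pass either, were higher in deletion mice with groups apart. Lynx1, a GPI-anchored protein that dampens nicotinic receptors, fell to 205, 236, 243 and 251 CPM in deletion mice 1 to 4, against 352, 307, 308 and 312 CPM in Cre- mice 1 to 4 (log2 fold change −0.45, adjusted p = 0.00161 from edgeR). Ly6h, a related Ly6 protein, rose to 186, 150, 166 and 178 CPM in deletion mice, against 88.9, 118, 106 and 122 CPM in Cre- mice (log2 fold change 0.65, adjusted p = 0.00129 from edgeR). The groups did not overlap for either gene, and both passed with any mouse left out. The chaperone gene Ric3 rose as well (log2 fold change 0.27, adjusted p = 0.00629 from edgeR), but the call was lost in 7 of 8 analyses with a mouse left out (highest adjusted p 0.0249, without deletion mouse 3).

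Of 8 genes that anchor acetylcholinesterase or handle choline (Prima1, Colq, Bche, Slc44a1, Slc44a2, Chka, Chkb and Acly), 0 passed by edgeR, DESeq2 or limma-voom. Over all genes tested, edgeR called 8.78%, DESeq2 14.9% and limma-voom 1956 of 22173. In edgeR 1 of the 8, Slc44a2, had an unadjusted p under 0.05, against 29.6% of all genes tested. The log2 fold changes lay between −0.53 and 0.37, with a median of −0.05. Prima1, whose product anchors the brain form of acetylcholinesterase to the membrane, had a log2 fold change of 0.08 (95% interval −0.22 to 0.38), and the related enzyme butyrylcholinesterase (Bche) also had 0.08. The groups overlapped for all 8 of these genes, where they were apart for 22% of all genes tested.

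Downstream of the receptors, 1 of 9 genes of the Gq arm fell and 0 rose, where 3.91% of all genes tested fell and 4.87% rose. The median log2 fold change was 0.06, but the summed level of the 9 genes was 3230 to 3690 CPM in deletion mice, against 3770 to 4010 CPM in Cre- mice, without overlap. The groups were apart for 3 of the 9 genes, all lower in deletion mice. Over all genes tested, 22% were apart and 10.3% were apart and lower in deletion mice. Besides the gene that fell, the 3 were the phospholipase gene Plcb1 and the IP3 receptor gene Itpr1, which did not pass. Their log2 fold changes were −0.20 (adjusted p = 0.0765 from edgeR) and −0.19 (adjusted p = 0.0762 from edgeR). Itpr1 made up the largest part of the summed level, with 1776 to 2017 CPM in deletion mice and 2156 to 2291 CPM in Cre- mice. The gene that fell was Kcnq3, a subunit of the M-current potassium channel that muscarinic receptors close, with 146, 119, 162 and 142 CPM in deletion mice 1 to 4, against 198, 203, 177 and 191 CPM in Cre- mice 1 to 4 (log2 fold change −0.44, adjusted p = 0.00491 from edgeR). The groups did not overlap, and the call was lost in 4 of 8 analyses with a mouse left out (highest adjusted p 0.0171, without Cre- mouse 2). Kcnq5, of the same channel family, was at −0.10 on the log2 scale without passing.

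Of 11 genes of the Gi and Go arm, 2 rose and 0 fell, where 4.87% of all genes tested rose and 3.91% fell, and the median log2 fold change was 0.03. Kcnj9, the GIRK3 subunit of potassium channels opened by Gi and Go proteins, rose to 83.5, 77.2, 78.0 and 86.0 CPM in deletion mice, against 47.6, 43.3, 45.0 and 50.8 CPM in Cre- mice, well apart (log2 fold change 0.80, adjusted p = 2.38e-05 from edgeR). It passed with any mouse left out. Rgs4, a GTPase activator that limits signalling by Gi and Gq proteins and is known to curb M4 autoreceptor function in cholinergic interneurons, also rose (log2 fold change 0.41, adjusted p = 0.00445 from edgeR), a call lost in 6 of 8 analyses with a mouse left out (highest adjusted p 0.0181, without deletion mouse 3). The G protein genes Gnai1, Gnai2, Gnai3 and Gnao1 had log2 fold changes of 0.14, 0.22, −0.0011 and −0.26 and did not pass. Kcnj3, another gene of this list, had its largest log2 fold change, 0.89, without passing (edgeR, adjusted p = 0.0152). The groups were apart for 5 of the 11 genes, against 22% of all genes tested. Of these, Kcnj9, Rgs4, Kcnj3 and Gnai2 were higher and Gnao1 was lower in deletion mice. An unadjusted p under 0.05 in edgeR was found for 6 of the 11, against 29.6% of all genes tested.

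To find genes that followed the same pattern over the 8 mice, log2 CPM was centred on each gene's mean and the root mean square difference was taken among 16325 tested genes with a mean of at least 1 CPM. The 5 nearest to Chat were 4833445I07Rik, St8sia3, Mast3, Elk4 and Ttbk1, at 0.0556 to 0.0646. Slc5a7 was 19th of 16325 at 0.074, whereas Chrm4 was 565th, Slc10a4 686th, Lhx8 1095th and Slc18a3 13084th at 0.349. The 5 nearest to Chrm4 were Smug1, Zcchc14, Dop1b, Sema6a and Maml1, at 0.055 to 0.0753, with Chat at 156th and Chrm1 at 1134th. The measure favours genes that vary little, and the 8 libraries are the same for all genes.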

How the data were processed

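Per the submitters' processing notes, the authors used Trim Galore 0.6.4, STAR 2.7.2b and featureCounts. The notes also name the builds GRCm38.p6, GRCh38.p6 and mm10 without their roles. The authors deposited whole-number counts per gene, not normalized. How strand and multimapping reads were handled is not stated there, so genes that overlap on opposite strands cannot be told apart. The deposited table of DESeq2-transformed values was not used. Counts were tested with edgeR 4.0.16 in R 4.3.3: filterByExpr (minimum count 10, minimum total 15), TMM normalization, the quasi-likelihood F-test with group alone, and Benjamini-Hochberg adjustment over 22173 genes. Standard errors of edgeR's log2 fold changes are the log2 fold change, without its sign, divided by the square root of F. The edgeR step was tested on simulated data. Standard errors of ratio differences come from the variance of the log2 count ratios within each group. For ratios and for the level of 1 gene, mice were permuted over all 70 assignments of 4 against 4 (exact, two-sided), with ratios adjusted over 8. The labels do not say whether mice shared a litter. The p-values set group differences against the spread between these mice and treat the mice as independent.

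Alternatives were DESeq2 1.42.0, limma-voom (limma 3.58.1), scaling by library sizes alone or by RLE, a filter of 1 CPM in 4 mice or none, the replicate number as a block, each mouse left out and, for ratios, a prior count of 2. Thinning to 47059264 counts (seed 1) and leaving out the mouse of each group with the most cortical marker RNA were added after the data were seen. The genes and lists were chosen with earlier results of these data known. By rule, the text names the 9 genes, Bcl11b, the further cholinergic interneuron genes (1 of the 9 is not reported here), genes of each pathway list past the threshold (the 4 with the smallest p where more passed) and the 5 nearest to Chat and to Chrm4. Chrna4, Lypd1, Tmem35a, Plcb1, Itpr1, Kcnq5, Kcnj3, Prima1, Bche, Slc44a2, Drd1, Tac1, Pdyn, Th, Kcna1, Nkx2-1, Slc17a7, Cux2, Rora and the G protein genes were named after their values were seen. Among the cell type lists, direct and indirect pathway neurons, cortical, thalamic, glial, endothelial and choroid plexus markers were summed per mouse. By edgeR, 0 of 3 direct and 3 of 4 indirect pathway genes fell, where 3.91% of all genes tested fell. The 3 direct pathway genes went in both directions without passing (Drd1 −0.26, Tac1 0.47 and Pdyn 0.10 on the log2 scale). Of the others, 1 of 8 cortical genes (Cux2) and 1 of 4 tested thalamic genes (Rora) rose, where 4.87% of all genes tested rose. Of astrocyte, oligodendrocyte, microglia, endothelial and choroid plexus genes 0 passed by edgeR, where 8.78% of all genes tested passed. An unadjusted p under 0.05 in edgeR was found for 1 astrocyte and 1 choroid plexus gene, against 29.6% of all genes tested. Gene positions and exon lengths are from GENCODE M21 (GRCm38) and promoter windows from RefSeq (GRCm38.p6).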

Additional observations from a re-analysis of the deposited data

Results flagged for a closer look

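Within groups of 4 mice, 92 sets of values (the 9 genes, the further cholinergic interneuron genes, the ratios and the summed cell type and pathway lists, in each group) were searched for a mouse far from the other 3, and 7 were found; chance alone would mark about 1 in 20. Deletion mouse 2 stood apart from the other deletion mice for Chrm4 (29.3 CPM), Zic4 (2.90 CPM) and Slc10a4 (5.82 CPM), and it is the library with the most choroid plexus RNA. Deletion mouse 3 stood apart for Chrm5 (0.605 CPM, 39 counts) and for the summed microglia markers (305 CPM). The ratio of Slc18a3 to Chat was lower in deletion mouse 4 (0.211) than in the other deletion mice, and still above every Cre- mouse. Cre- mouse 4 stood apart for the summed cortical neuron markers (179 CPM).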

How the results depend on the processing

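The count of the 9 genes that passed was 0 higher and 0 lower in most alternatives. The exceptions were DESeq2 (2 higher, 1 lower), no filter on low counts (1 higher, Ache) and leaving out deletion mouse 2 (1 higher, Ache), so with each mouse left out the count ran from 0 to 1 higher and stayed at 0 lower. Over all genes, DESeq2 called 3313 (1747 higher, 1566 lower) in place of 1947 (1079 higher, 868 lower), and with a mouse left out edgeR called 1102 to 2066 (631 to 1160 higher, 471 to 906 lower), with the lowest counts without Cre- mouse 3 (1102), deletion mouse 3 (1127), deletion mouse 1 (1169) and deletion mouse 4 (1285). The replicate number as a block gave 1165 genes (673 higher, 492 lower) and 0 of the 9. Of 10 further genes called in the text, Ly6h and Kcnj9 passed with the block and 8 did not (Slc17a8, Chrna7, Chrnb2, Chrnb4, Ric3, Lynx1, Kcnq3 and Rgs4, adjusted p 0.011 to 0.0201, with Lynx1 at 0.0119). Without the mouse of each group with the most cortical marker RNA, Chrnb4, Kcnq3 and Rgs4 did not pass (adjusted p 0.0367, 0.0255 and 0.0297). The deviations of same-numbered mice had correlations of −0.02, −0.40, −0.0046 and 0.08 for numbers 1 to 4. Those of mice with unlike numbers ran from −0.369 to 0.369, so this check cannot exclude a pairing. The labels do not say whether the numbers pair mice. With the block, the edgeR adjusted p was 0.0767 for Chrm3 and 0.0283 for Chrm5. Slc18a3 and Ache were higher and Chrm1, Chrm4 and Chrm5 lower in every alternative that tested them; Chat was above 0 in 1 and Chrm2 in 2 of 17 alternatives. The median over all genes was −0.0037 with TMM, −0.0038 with RLE and −0.015 with library sizes alone on the log2 scale. Ratios with a mouse left out have 35 assignments and a smallest p of 0.0571, so those tests say nothing about stability; the Slc18a3 to Chat difference then ran from 0.62 to 0.72 and the Ache to Chat difference from 0.32 to 0.40 on the log2 scale. Among the 9 genes Chrm5 had the fewest counts, 12 to 66 per library.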
